A study of Mus musculus with 2 samples.

Results

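The genes described here encode the subunits of the serine/threonine protein phosphatases of the PPP family. They were chosen as the protein-coding genes of a mouse RefSeq table whose symbol begins with Ppp and a digit, which gave 77 of 21900 genes. The family was chosen for description from its calls in the deposited H3K9bhb peak list, where a member has a peak if a summit lies inside it or within 5 kb of it, so the peak calls and their scores are described and not tested. By symbol, 11 members were catalytic subunits and 66 were regulatory subunits, a term that here covers scaffold, targeting and inhibitor proteins together. Ppp1ccb, whose symbol marks a further PP1 catalytic gene, did not match the symbol pattern of the catalytic genes and was counted with the 66.

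PPP phosphatases remove phosphate from serine and threonine. A few catalytic subunits serve many substrates, because each pairs with one of a large set of regulatory subunits that bring it to a place or a substrate or that hold it inactive. The class numbers name the catalytic partner: Ppp1 for PP1, Ppp2 for PP2A, Ppp3 for calcineurin, and Ppp4, Ppp5 and Ppp6 for PP4, PP5 and PP6. Calcineurin is the calcium-activated phosphatase that dephosphorylates NFAT factors after stimulation of the T cell receptor, and PP2A is known to counter kinase signals such as that of Akt.

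H3K9bhb is histone H3 carrying β-hydroxybutyrate, a ketone body, on lysine 9. The series held 2 libraries from spleen cells of OT-I mice, strain C57BL/6, whose T cells carry a transgenic receptor for an ovalbumin peptide: 1 H3K9bhb ChIP library made with 4 µg of antibody, and 1 input DNA library. Both came from cells given the peptide (200 ng/ml) with interleukin-2 (10 ng/ml) for 3 days, then interleukin-15 (10 ng/ml) for 4 days, and treated with β-hydroxybutyrate for 3 days. The labels call the result CD8+ memory T cells and give 70 M reads per library; the number of mice and the dose of β-hydroxybutyrate are not stated there. No culture without β-hydroxybutyrate was analysed here, so no peak can be read as a change with treatment.

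The list held 2315 summits of 2204 peaks. Each summit carries the authors' own score, a −log10 p or q value, whose median over the peaks was 5.04 (quartiles 3.33 and 6.78, highest 1167.46). There was 1 ChIP library and no replicate, so no value below has a replicate error and nothing was tested between groups. Mitochondrial DNA, which is free of histones, held 9 of the peaks, so not each call is evidence of the mark. None of 10 genes that CD8 T cells express had a peak, Cd8a and Cd8b1 among them, with others shared by all T cells, such as Cd3e, or by all leukocytes, such as Ptprc (0 of 10; a zero of this size is compatible with a share up to 30%, or 3 of 10). None of 12 markers of B, myeloid, NK and CD4 T cells had one either (0 of 12). Of all protein-coding genes 11.4% had one, a share at which lists this small can hold none. The peak list therefore does not tell these cell types apart.

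Among the phosphatase genes, 18 of 77 had a peak (23.4%, exact 95% interval 14.5 to 34.4). This stands beside the 11.4% of all protein-coding genes. The 18 were 4 catalytic and 14 regulatory genes, each with 1 summit. Every class from Ppp1 to Ppp6 held at least 1 of them. The intervals cover counting error over genes only, and since the genes were chosen with these peaks in view the shares are given as a description.

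Catalytic subunits had a peak in 4 of 11 genes (36.4%, interval 10.9 to 69.2) and regulatory subunits in 14 of 66 (21.2%, interval 12.1 to 33.02). The interval of the catalytic share spans that of the regulatory share, so the difference was not resolved with 11 genes. With Ppp1ccb, which had no peak, moved to the catalytic genes, the counts were 4 of 12 and 14 of 65. By class, 9 of 45 Ppp1 genes had a peak (20%, interval 9.58 to 34.6), 3 of 16 Ppp2 genes (18.8%, interval 4.05 to 45.6), 1 of 5 Ppp3 genes, 1 of 6 Ppp4 genes, the single Ppp5 gene and 3 of 4 Ppp6 genes (75%, interval 19.4 to 99.4). Ppp1 held 45 of the 77 members, and its share lay near those of Ppp2, Ppp3 (20%) and Ppp4 (16.7%), with wide intervals throughout. The intervals of the catalytic genes and of Ppp1 to Ppp5 included the 11.4% of all protein-coding genes. Those of the regulatory genes and of Ppp6 lay above it. The family was chosen from these same calls, so neither position of an interval is a test of a difference. Ppp6c was counted through a summit 3682 bp outside it, nearer to another gene. By nearest gene end, 2 of 4 Ppp6 genes (50%) and 3 of 11 catalytic genes (27.3%) had a peak, beside 9.24% of all genes.

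**Figure D1:**
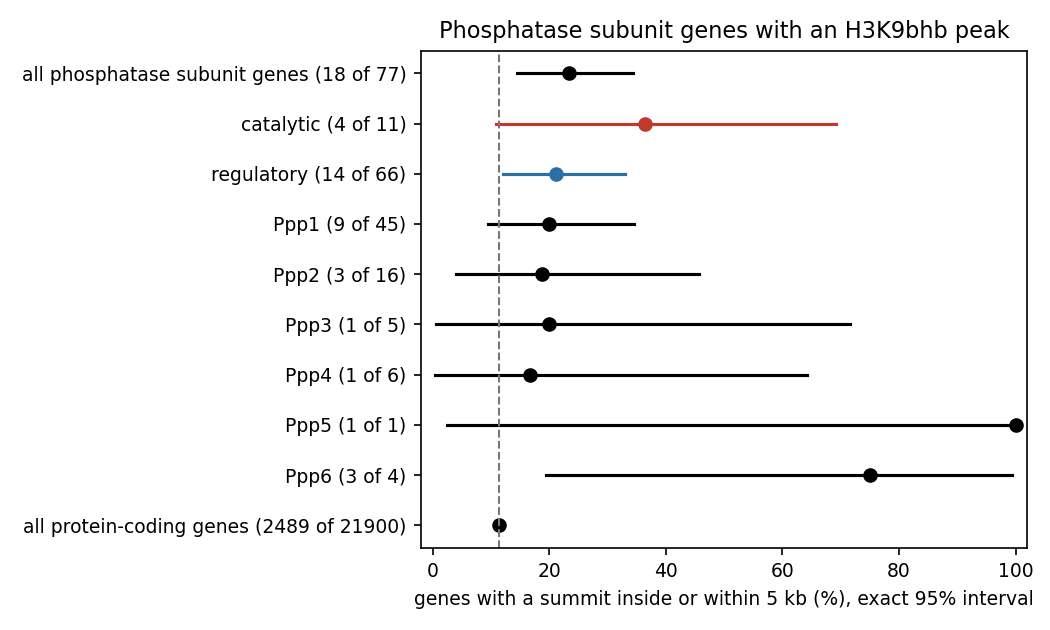
Share of genes with an H3K9bhb summit inside them or within 5 kb, in percent, for all phosphatase subunit genes, by role and by class, with exact 95% intervals as lines; the dashed line is the 11.4% of all protein-coding genes. The shares of Ppp1 to Ppp4 lie between 16.7% and 20%, Ppp5 (1 gene) and Ppp6 (4 genes) lie higher, and all class intervals overlap.

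The catalytic subunits differed in score and in position. Coordinates are those of mm10, and exons and introns were not annotated in the gene table used. Ppp5c (gene 19060, chr7:17004640-17027914), which encodes PP5, a phosphatase that binds the chaperone Hsp90, had the highest score of the family, 11.5, ranked 99th of the 2204 peaks. Its summit at 17027653 lay 261 bp downstream of the annotated transcription start. Ppp3cc (gene 19057, chr14:70217864-70289536), the gamma form of the calcineurin catalytic subunit, scored 3.85 at 70289332, which is 204 bp inside its higher-coordinate end. Ppp1cb (gene 19046, chr5:32458848-32493713), the beta form of PP1 that forms myosin phosphatase, scored 2.23 at 32459329, 359 bp downstream of its nearest annotated start; 94.3% of peaks scored as high or higher. Ppp1cb was thus among the weaker calls of the list, and Ppp5c among the stronger ones. Ppp3cc lay between the lower quartile and the median, with 68.5% of peaks scoring as high or higher.

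Ppp6c (gene 67857, chr2:39194369-39226349), which encodes the PP6 catalytic subunit, was counted through a summit outside the gene. That summit, at 39190687 with a score of 5.74, lay 3682 bp beyond the transcript end of Ppp6c and 35662 bp from its start. It lay 43 bp downstream of the start of Scai, the neighbouring gene, and 71 bp from the end of Scai. Ppp6c was also the member closest to the 5 kb limit on the inner side. Just outside the limit were Ppp1r11, which encodes inhibitor-3 of PP1, at 5134 bp and Ppp2r5b, a PP2A B′ subunit, at 5493 bp; their closest summits lay nearest to ends of Rnf39 and Atg2a. The next 3 were Ppp1r37 at 7.5 kb, Ppp1r14d at 7.8 kb and Ppp1r1b at 9.7 kb.

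The other 7 catalytic genes had no summit within 5 kb. The closest one was 22.6 kb away for Ppp1ca and 317.8 kb away for Ppp1cc, the alpha and gamma forms of PP1. It was 109.4 kb away for Ppp2ca and 112.2 kb away for Ppp2cb, which encode the PP2A catalytic subunits. For calcineurin it was 843.2 kb from Ppp3ca and 246.9 kb from Ppp3cb, and for PP4 it was 174.4 kb from Ppp4c. Neither PP2A catalytic gene had a peak (0 of 2, with an exact interval up to 84.2%), and of the calcineurin catalytic genes the gamma form alone did.

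**Figure D2:**
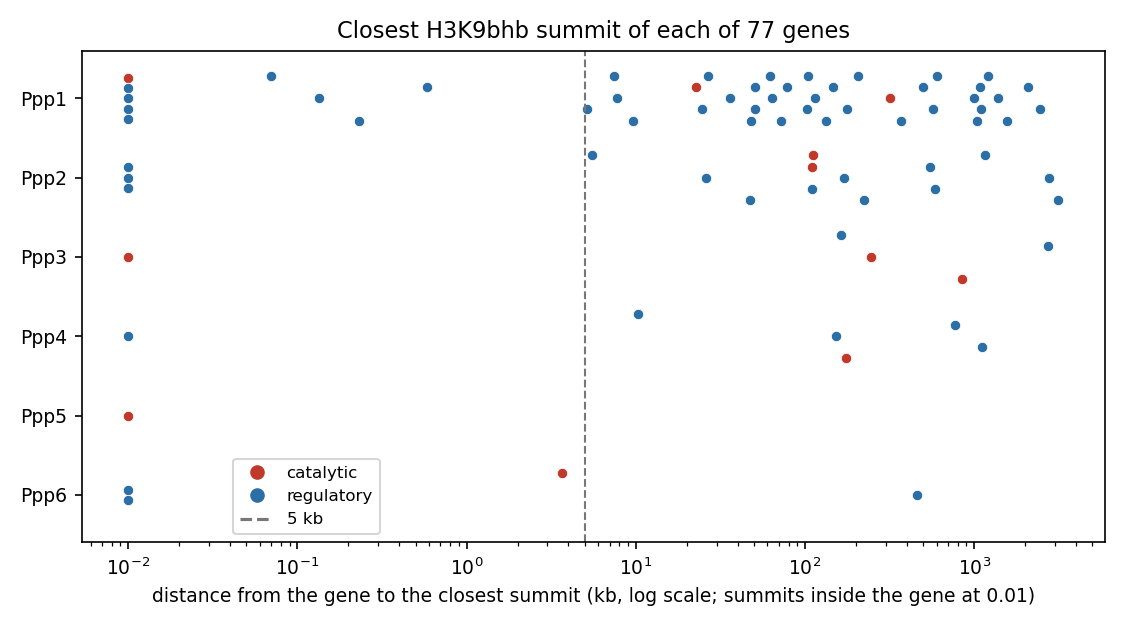
Distance in kb, on a log scale, from each of the 77 genes to its closest summit, by class; summits inside a gene are drawn at 0.01 kb, red points are catalytic genes and blue points regulatory ones. The 18 genes left of the dashed 5 kb line have a peak; the other 59 range from 5.1 to 3139.2 kb.

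The PP1 regulators with a peak were 8 of 42 genes (19.0%), Ppp1ccb counted among the 42, beside 11.4% of all protein-coding genes. They had varied functions. The highest-scoring whose own end was nearest was Ppp1r16b (8.79, chr2:158667883), which encodes TIMAP, a membrane-bound targeting subunit, with a summit 748 bp downstream of the nearest start. Ppp1r12b (7.95, chr1:134955746), the myosin phosphatase targeting subunit MYPT2, had its summit 194 bp downstream of a start. Ppp1r21 (7.89, chr17:88530054), which encodes an endosomal protein, and Ppp1r13b (7.39, chr12:111908253), which encodes the p53-binding protein ASPP1, had summits 70 and 198 bp upstream of their starts. Ppp1r7 (3.17, chr1:93343840) encodes SDS22, a conserved leucine-rich partner of PP1, and had its summit 212 bp downstream of the start. Ppp1r3e (2.27, chr14:54876598), a glycogen-targeting subunit, had its summit 940 bp inside its higher-coordinate end. That gene is 1942 bp long, so the summit lay near its middle. These 6 scores ran from 2.27 to 8.79, on both sides of the list median.

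The remaining pair of PP1 regulators were counted through summits nearer to another gene. The summit of Ppp1r27 (9.57, chr11:120549745), a small gene of 1158 bp, lay 230 bp beyond its transcript end and 18 bp upstream of the start of Mcrip1. The summit of Ppp1r42 (3.17, chr1:9968038), which encodes a leucine-rich repeat protein, lay 584 bp outside its lower-coordinate end and 57 bp from an end of Tcf24. With each summit given to the gene with the nearest end, 15 of 77 members had a peak (19.5%), against 9.24% of all protein-coding genes.

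The numbered subfamilies of PP1 regulators are small, and their counts do not set them apart from the class. The myosin phosphatase family Ppp1r12 had 1 of 3 genes with a peak, the ASPP family Ppp1r13 had 1 of 2, the TIMAP family Ppp1r16 had 1 of 2, and the glycogen-targeting family Ppp1r3 had 1 of 7. The Ppp1r14 genes, which encode small phosphorylation-dependent inhibitors of PP1, had 0 of 5, with an exact interval up to 52.2%. Ppp1r15a and Ppp1r15b, which direct PP1 to the translation factor eIF2α, and Ppp1r9a and Ppp1r9b, which encode the actin-binding neurabin and spinophilin, had none either.

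Of the PP2A genes, 3 of 14 regulatory subunits had a peak (21.4%), beside 11.4% of all protein-coding genes. There was 1 in each of the 3 B-type families. Ppp2r2a (gene 71978, chr14:67014056-67072471), which encodes the B subunit B55α, scored 9.54 at 67072227, 244 bp inside its higher-coordinate end. Ppp2r5c, the B′ subunit B56γ, and Ppp2r3a, a B″ subunit, both scored 4.09. The Ppp2r5c summit, chr12:110447448, lay inside the gene, 304 bp from its 5′ end, and 74 bp upstream of the nearest start in the promoter table, and the Ppp2r3a summit, chr9:101251450, was 382 bp downstream of its start. No peak was found at the other 3 Ppp2r2, 4 Ppp2r5 and 2 Ppp2r3 genes. The scaffold genes Ppp2r1a and Ppp2r1b, which hold catalytic and B subunits together, had their closest summits 2760.4 and 109.9 kb away.

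Neither calcineurin B gene had a peak, with the closest summit 2725.1 kb from Ppp3r1 and 162.9 kb from Ppp3r2. Ppp4r1, a PP4 regulator, scored 4.26 at chr17:65783770, 1227 bp inside its lower-coordinate end, and the other 4 PP4 regulators had none. For PP6, 2 of 3 SAPS-domain regulators had a peak, beside 11.4% of all protein-coding genes. Ppp6r1 scored 2.99 with a summit, chr7:4658863, 87 bp downstream of the start, and Ppp6r3 scored 2.12 with a summit, chr19:3575484, 265 bp downstream of the nearest start. Ppp6r2 was 459.5 kb from its closest summit. The 2 marked PP6 regulators scored below the lower quartile of the list, 3.33.

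**Figure D3:**
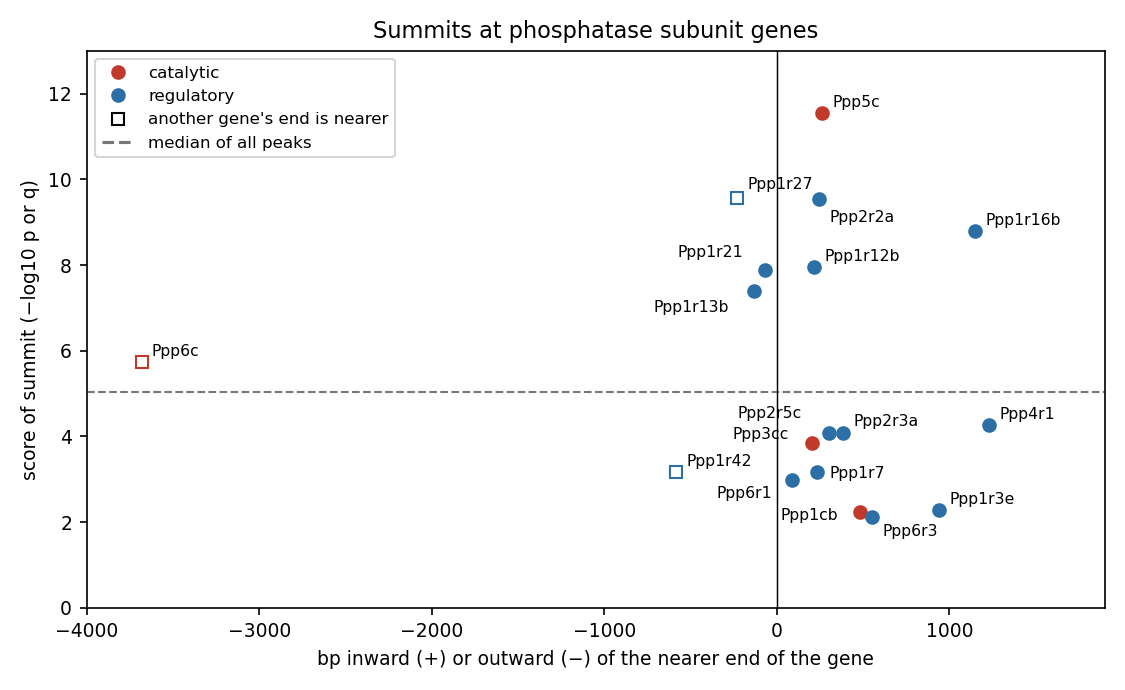
Score of each of the 18 summits (−log10 p or q) against its position in bp from the nearer end of its gene, positive values inside the gene; red marks catalytic and blue regulatory genes, open squares are summits nearer to an end of another gene, and the dashed line is the list median of 5.04. The summits gather near gene ends, 12 of 18 within 500 bp of one, 8 of 18 lie above the dashed line, and that of Ppp6c lies 3682 bp outside its gene.

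As a group, the 18 summits scored 4.17 at the median (quartiles 3.17 and 7.94, lowest 2.12, highest 11.5). Over all 2315 summits the median was 5.04, and 8 of the 18 scored above the median of the peaks. None of the 18 was among the peaks scoring over 20. The 4 catalytic summits had a median of 4.79 and the 14 regulatory ones of 4.17, with overlapping ranges of 2.23 to 11.5 and 2.12 to 9.57. When the list was cut to its top 50% by score, 8 of 77 members had a peak (10.4%), against 5.76% of all protein-coding genes: 2 of 11 catalytic and 6 of 66 regulatory genes.

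Most summits lay just inside the gene. Of the 18, 13 were inside the member, 12 were within 500 bp of its nearer end and 17 were within 2 kb of it. The reference gave a transcription start for 61 of the 77 members and for 13 of the 18 with a peak. Of these 13 summits, 11 were nearer to the start of the member than to its transcript end, and 12 (92.3%), that of Ppp1r27 among them, lay within 2 kb of a start, at a median of 236.5 bp downstream with quartiles of 47.8 and 364.8 bp. At the other protein-coding genes with a peak and a known start, 80.4% of 2214 summits lay within 2 kb of a start, at a median of 108 bp downstream with quartiles of -46 and 242 bp. Both sets lay mostly at or just past the start. Counted only within 2 kb of an annotated start, 12 of 61 members had a peak (19.7%), against 9.58% of 17492 protein-coding genes.

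The promoter windows below, from RefSeq on GRCm38.p6, run from 250 bases before the start to 50 bases after it. The first group is the 3 windows that hold a member's own summit, chosen because there the called position and the promoter sequence can be read together. The Ppp2r5c window lies wholly inside the gene as the gene table gives it, which begins at 110447144, so it precedes a start of the promoter table and not the 5′ end of the gene. Capitals mark any of 8 motifs, searched on both strands. SP and KLF factors were represented by GGGCGG. ETS factors were represented by CCGGAAG and the factor NF-Y by CCAAT. The cAMP response element was searched as its core TGACG and the E-box as CACGTG. The core of the NRF1 motif was written GCATGCG. The TATA box was searched as TATAAA and forkhead factors as TGTTTAC. Matches of the cAMP element core on the 2 strands can overlap. The summit is at base 181 of the Ppp1r21 window, base 53 of the Ppp1r13b window and base 177 of the Ppp2r5c window, counted from the 5′ end.
Ppp1r21, chr17:88529874-88530173, plus strand: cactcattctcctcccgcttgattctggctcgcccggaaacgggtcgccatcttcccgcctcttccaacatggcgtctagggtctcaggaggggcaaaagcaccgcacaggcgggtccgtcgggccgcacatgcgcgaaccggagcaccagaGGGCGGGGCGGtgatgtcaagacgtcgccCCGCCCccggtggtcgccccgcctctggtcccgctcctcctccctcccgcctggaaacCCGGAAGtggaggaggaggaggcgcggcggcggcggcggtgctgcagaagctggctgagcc
Ppp1r13b, chr12:111908006-111908305, minus strand: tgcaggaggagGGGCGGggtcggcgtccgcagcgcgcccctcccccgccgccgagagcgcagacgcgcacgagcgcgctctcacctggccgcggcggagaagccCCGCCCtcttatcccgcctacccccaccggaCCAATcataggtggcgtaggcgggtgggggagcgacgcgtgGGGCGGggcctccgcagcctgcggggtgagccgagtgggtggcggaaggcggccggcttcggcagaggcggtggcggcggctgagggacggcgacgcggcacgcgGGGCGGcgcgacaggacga
Ppp2r5c, chr12:110447272-110447571, plus strand: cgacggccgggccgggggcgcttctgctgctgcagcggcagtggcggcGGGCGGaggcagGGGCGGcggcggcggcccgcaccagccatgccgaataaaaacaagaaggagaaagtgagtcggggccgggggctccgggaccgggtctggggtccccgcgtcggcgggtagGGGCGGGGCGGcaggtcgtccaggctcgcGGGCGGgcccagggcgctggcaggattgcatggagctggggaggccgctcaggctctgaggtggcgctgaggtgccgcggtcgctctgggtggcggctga

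Each of the 3 was rich in G and C and in CpG. G and C made up 70.0% of the Ppp1r21 window, 77.7% of the Ppp1r13b window and 75.7% of the Ppp2r5c window, with 32, 47 and 36 CpG. The CpG observed/expected ratio, the number of CpG over that foreseen from the C and G content, was 0.871, 1.06 and 0.904. All 3 held several GGGCGG matches, 3 in Ppp1r21, 4 in Ppp1r13b and 5 in Ppp2r5c, with overlapping matches counted apart. Ppp1r21 also held an ETS match, and Ppp1r13b held a CCAAT match.

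For comparison, the windows of Ppp5c, which had the highest score of the family with a summit 261 bp past the start, and of Ppp2ca, a catalytic gene without a peak, are given next. Both were chosen after their values were seen.
Ppp5c, chr7:17027865-17028164, minus strand: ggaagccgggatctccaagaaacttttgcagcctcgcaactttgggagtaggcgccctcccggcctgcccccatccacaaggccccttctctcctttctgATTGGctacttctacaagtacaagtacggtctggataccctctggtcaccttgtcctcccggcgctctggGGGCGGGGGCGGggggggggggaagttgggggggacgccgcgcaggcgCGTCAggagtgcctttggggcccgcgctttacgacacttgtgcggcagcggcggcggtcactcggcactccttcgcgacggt
Ppp2ca, chr11:52098574-52098873, plus strand: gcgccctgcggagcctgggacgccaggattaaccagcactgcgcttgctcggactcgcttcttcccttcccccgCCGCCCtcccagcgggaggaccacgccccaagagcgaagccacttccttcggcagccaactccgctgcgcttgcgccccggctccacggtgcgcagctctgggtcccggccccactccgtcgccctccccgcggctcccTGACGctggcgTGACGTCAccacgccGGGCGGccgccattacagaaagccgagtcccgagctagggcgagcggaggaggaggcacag

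These windows were both rich in G and C and in CpG, with a peak at the gene or without. The Ppp5c window had 65.7% G and C and a CpG ratio of 0.774, and the Ppp2ca window had 71.7% and 0.904. Each held 2 GGGCGG matches, and TGACG had 1 match in Ppp5c and 3 in Ppp2ca, 2 of them overlapping on opposite strands. CCAAT had 1 match in Ppp5c, on the opposite strand, and 0 in Ppp2ca.

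Over all members with a window, the CpG ratio was much the same with and without a peak. Its median was 0.849 for 13 members with a peak (quartiles 0.708 and 0.962) and 0.806 for 48 members without one (quartiles 0.614 and 0.982). Over all protein-coding genes it was 0.820 with a peak (2032 genes) and 0.513 without (15460 genes). A ratio of at least 0.6, a value often used for CpG islands, was found in 11 of 13 members with a peak and 36 of 48 without (75%), and in 48.4% of all genes. Of the members with such a promoter 11 of 47 had a peak (23.4%), beside 19.7% of all genes with such a promoter. Below a ratio of 0.6 it was 2 of 14 members, beside 4.00% of all genes. Those 2 were Ppp1r16b (0.303) and Ppp1r27 (0.469), and Ppp1r27 was counted through the start of Mcrip1. The Ppp1r16b window belongs to its outermost start, 1150 bp from the summit, and not to the nearest start, 748 bp from it.

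**Figure D4:**
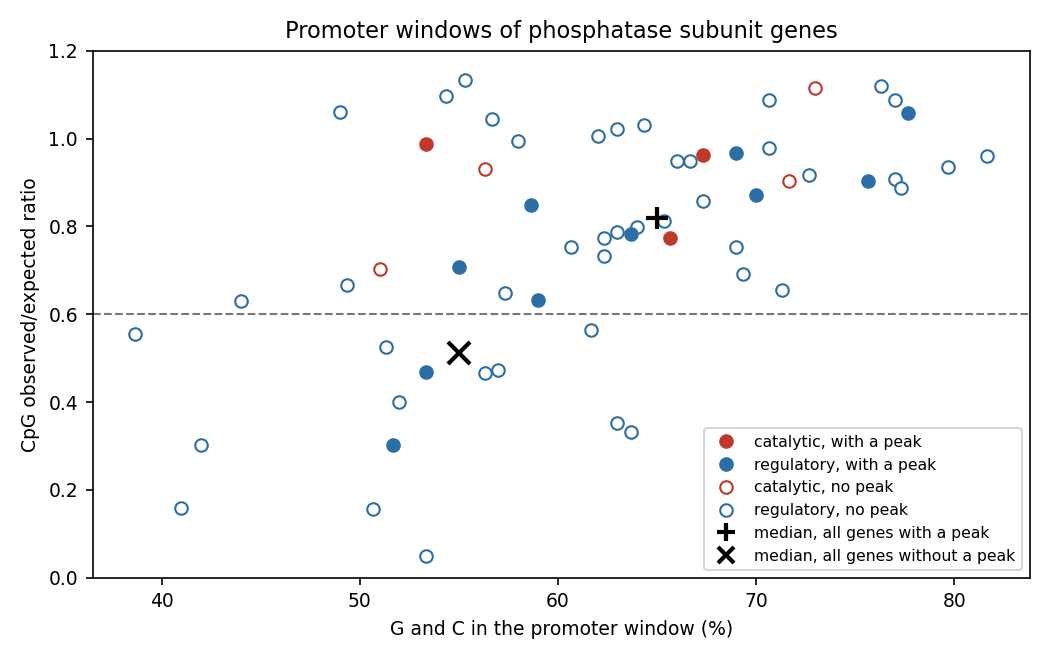
CpG observed/expected ratio against the percentage of G and C in the promoter window of 61 phosphatase subunit genes; filled points have a peak and open points have none, red is catalytic and blue regulatory, the plus and the cross are the medians of all genes with and without a peak, and the dashed line is a ratio of 0.6. Filled and open points overlap, at medians of 0.849 and 0.806, while the plus and the cross lie at 0.820 and 0.513.

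The motif counts likewise gave no split within the family. A window with a peak is here the window of a gene with a peak, wherever its summit lies. Of the 13 member windows of that kind, 3 hold the summit itself. GGGCGG was present in 9 of 13 windows with a peak (69.2%) and 33 of 48 without (68.8%). It was in 46.3% of all 17492 windows and in 73.2% of those of all genes with a peak. TGACG was present in 7 of 13 (53.8%) and 21 of 48 (43.8%), in 23.8% of all windows and in 32.3% of those with a peak. CCAAT was present in 5 of 13 and 14 of 48 (29.2%), in 39.2% of all windows and in 35.2% of those with a peak. CCGGAAG was in 2 of 13 and 5 of 48, beside 11.9% of all windows and 15.6% of those with a peak. TATAAA was in 1 of 13 and 7 of 48, beside 13.3% and 5.71%. CACGTG was in 0 of 13 and 2 of 48, GCATGCG in 0 of 13 and 3 of 48, and TGTTTAC in none of the 61. These 3 were in 7.91%, 4.50% and 2.93% of all windows, and in 11.4%, 6.79% and 2.66% of those with a peak.

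Members with a peak were longer genes. Their median length was 58.3 kb for the 18 with a peak and 20.2 kb for the 59 without, and over all protein-coding genes it was 31.3 kb with and 15.8 kb without. The median length was 23.9 kb for catalytic and 22.3 kb for regulatory genes. Of members up to 10 kb long, 2 of 20 had a peak, beside 5.68% of all genes of that length. From 10 to 30 kb it was 3 of 24, beside 11.8%; from 30 to 100 kb it was 9 of 23, beside 17.2%; and over 100 kb it was 4 of 10, beside 16.6%. A longer gene leaves more room for a summit by position alone, and its part in the counts was not tested.

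**Figure D5:**
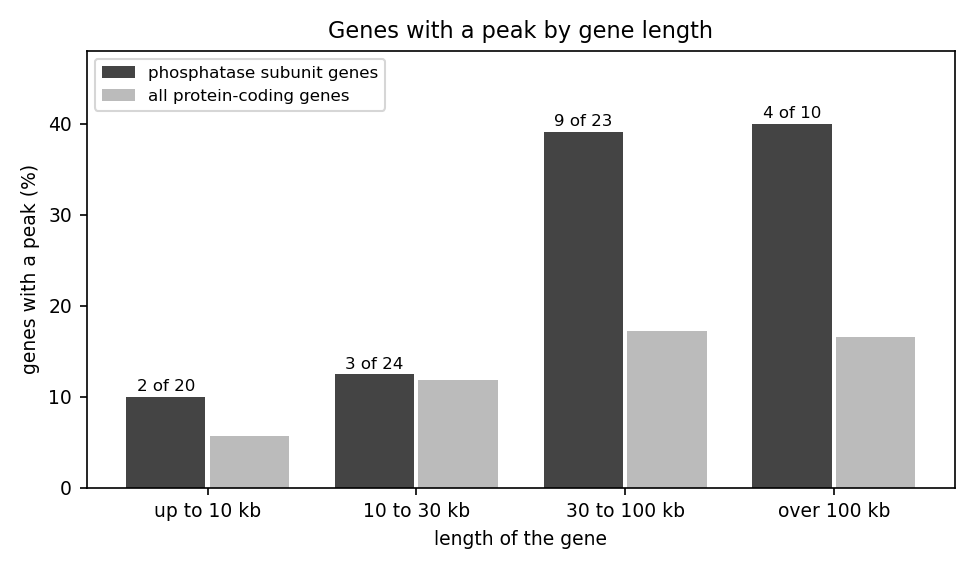
Percentage of genes with a peak by length of the gene, for the phosphatase subunit genes (dark bars, with counts) and for all protein-coding genes (light bars). The dark bars stand at 2 of 20, 3 of 24, 9 of 23 and 4 of 10 genes, and the light bars at 5.68%, 11.8%, 17.2% and 16.6%.

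Another gene lay within 5 kb of 7 of the 18 summits, so these cannot be given to the phosphatase gene by distance alone. Besides Mcrip1, Scai and Tcf24, the neighbours were Pask, 318 bp from the Ppp1r7 summit, Hspbp1, 1652 bp from that of Ppp6r1, Hif3a, 3340 bp from that of Ppp5c, and Homez, 4870 bp from that of Ppp1r3e. For these 4 the phosphatase gene had the nearer end. The 11 summits with no other protein-coding gene within 5 kb had a median score of 4.26, and the 7 with one had 3.17.

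Genes that work with these phosphatases but carry other names were counted by the same rule. Of 31 partners, 9 had a peak (29.0%, interval 14.2 to 48.04), beside the 11.4% of all genes. The highest scores were at Cdca2 (11.8), which recruits PP1 to chromatin but whose summit was nearer to Kctd9, Strn (7.89 and 5.11), a striatin that joins PP2A to the STRIPAK complex, Ankrd28 (6.60) and Ankrd52 (4.09), ankyrin subunits of PP6, Phactr4 (4.22), a PP1 and actin binder, and Ptpa (3.50), an activator of PP2A.

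Of 23 genes of the calcineurin and NFAT pathway 6 had a peak (26.1%, interval 10.2 to 48.4), beside the 11.4% of all genes, which lies inside that interval. They were Csnk1a1 (9.12), a kinase of NFAT, the NFAT factors Nfatc2 (7.95) and Nfatc3 (5.11), Homer3 (5.63), a scaffold protein that binds NFAT, Cabin1 (2.51), a calcineurin inhibitor, and Calm3 (2.14), a calmodulin gene. The Nfatc2 summit lay 30360 bp from an end of the gene and that of Cabin1 21544 bp, while that of Nfatc3 lay 188 bp downstream of a start.

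The metal-dependent PPM phosphatases, an unrelated family that acts on the same residues without regulatory subunits of the PPP kind, had a peak at 8 of 19 genes (42.1%, interval 20.3 to 66.5), beside the 11.4% of all genes. They were led by Ppm1g (12.4), with a summit 34 bp from its start, Ppm1m (11.8), whose summit was 7 bp from an end of Twf2, Ilkap (8.70), Ppm1b (4.93), Tab1 (4.54), a pseudophosphatase of TAK1 signalling, and Phlpp1 (3.51), a phosphatase of Akt. Among 12 other serine/threonine phosphatases, 2 had one (16.7%, interval 2.09 to 48.4, which spans the 11.4% of all genes): Ctdsp2 (6.01), a phosphatase of the RNA polymerase II tail, and Rpap2 (4.22), whose summit was nearer to Glmn. The intervals of these lists overlap that of the PPP genes, 14.5 to 34.4%.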

How the data were processed

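The deposited peak list of the ChIP library was used; the input was not analysed here. The authors deposited 1 −log10 value per summit, of a p or a q value; neither the choice between p and q nor the caller's settings, its control or its handling of duplicates and repeats is stated in the labels. Reads were handled with Bowtie2 2.3.5 and MACS2 2.1.2 on build mm10, besides Trimmomatic 0.39 and FastQC 0.11.8, per the submitters' processing notes. Peak widths and read counts were not analysed, so the depth behind a peak is unknown.

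Every summit was set against RefSeq genes of GRCm38.p6, the assembly that mm10 denotes. Transcription starts and strands came from the RefSeq promoter table, which gave them for 61 of 77 members; of several starts the nearest was used, and the outermost for promoter sequence. The counting was tested on simulated summits. Intervals are exact (Clopper-Pearson, 95%) and cover counting error only. The members and lists were chosen with earlier results of these data known. Named are all members with a peak, all catalytic genes, the unmarked members nearest to the 5 kb limit, up to 6 genes per other list, and genes nearer to a summit; others were chosen after their values were seen. Scripts ran under Python 3.11.15 with scipy 1.17.1, pandas 2.3.3, numpy 2.4.6 and, for figures, matplotlib 3.10.9.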

Additional observations from a re-analysis of the deposited data

How the results depend on the processing

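Of 86 comparisons of a count or median with an alternative, 74 stayed within 1.5 times the reported count, or within the 95% interval of the median, and 12 did not. Not all of the 74 were free to move. No member summit scored over 20, so leaving out peaks over 20 could not change a count. Dropping the scaffold genes or moving Ppp1ccb could not change the number with a peak, as none of these had one. Using 1 summit per peak changed no count. The 74 is therefore no measure of how firm the counts are. Most of the 12 came from the 50% of peaks with the highest scores, where fewer peaks are used by construction. There 8 members had a peak (10.4%, beside 5.76% of all genes), 2 catalytic and 6 regulatory. Of these, 5 were in Ppp1, 1 in Ppp2, 0 in Ppp3, 0 in Ppp4, 1 in Ppp5 and 1 in Ppp6. With summits inside the gene alone, Ppp1 had 5 of 45 genes with a peak (11.1%), beside 8.71% of all genes. Within 2 kb of an annotated start, 2 of 7 catalytic, 0 of 3 Ppp3 and 0 of 5 Ppp4 genes had a peak, beside 9.58% of all genes. Ppp3cc and Ppp4r1 have no start in the table used, and the summit of Ppp6c lay 35662 bp from its start. The total of members with a peak was 13 without a flank, 17 with a 2 kb flank or at gene ends, 23 with a 10 kb flank and 15 by nearest end. Moving Ppp1ccb to the catalytic genes was chosen after seeing the data. No paired analysis was possible because there was 1 ChIP library and no test. Read depth at single peaks is unknown, so an uncalled gene is not shown to lack the mark.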

Other observations

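Of 11 Ppp-named loci that are not protein-coding, mostly pseudogenes of Ppp1r2 (inhibitor-2 of PP1), 2 had summits, and these lay inside the pseudogene. No share over all loci that are not protein-coding is given, so the 2 of 11 cannot be called high or low. Ppp1r2-ps4 on chromosome 9 (66804629 to 66806246) had 1 summit, at 66806105 with a score of 4.03, 8760 bp from the nearest end of a protein-coding gene, Aph1b. Ppp1r2-ps5 on chromosome 17 (6492191 to 6494321) had 2 summits, at 6493190 (3.17) and 6494116 (4.26), 15896 and 14970 bp from an end of Gm2808. The parent gene Ppp1r2 was 50.4 kb from its closest summit. Such copies can share reads with the parent gene and with each other, and the handling of reads with several matches was not stated, so these calls are uncertain.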
